A study of Mus musculus with 2 samples.

Results

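Cholesterol synthesis and sterol regulation were described here through 30 genes, chosen by symbol from textbook roles and found by Ensembl gene ID among the 43346 Ensembl genes of the tables. They comprise 7 genes of the mevalonate steps, 11 of the squalene and sterol steps, 5 of the SREBP regulatory system, 4 of sterol transport and storage, and 3 of efflux and turnover. The list does not cover every step of the pathway. The RNA came from midbrain of B6NCrl mouse embryos, a C57BL/6 substrain, at embryonic day 15.5, with no treatment or mutation in the labels. The midbrains of 78 embryos of both sexes were pooled for replicate 1 and those of 62 embryos for replicate 2, so neither an embryo nor a sex can be followed on its own. With 1 tissue, 1 age and 1 group, the series allows comparisons among genes and between the 2 pools, and no p-value was computed.

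Cholesterol is built from acetyl-CoA. The mevalonate steps yield farnesyl diphosphate, squalene synthase joins farnesyl units into squalene, and the squalene and sterol steps close the rings and trim them to cholesterol. The membrane proteins SREBP-1 and SREBP-2 control these genes. When sterol is scarce, Scap carries them to the Golgi, where they are cut to release a transcription factor, and the Insig proteins hold Scap back when sterol is plentiful. The blood-brain barrier keeps lipoprotein cholesterol out of the brain, so neural tissue makes most of its own, and inherited defects of several sterol enzymes disturb brain development.

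SREBPs bind sterol regulatory elements in promoters, commonly next to CCAAT boxes, which bind NF-Y, and GC boxes, which bind Sp1. RefSeq promoter windows of 300 bases (250 before the annotated start and 50 after it, build GRCm38.p6) were matched to 24 of the 30 genes in 32 windows. The 250 bases before the start are shown for 3 genes whose windows hold the matches described here: Hmgcs1 (chr13:119690101-119690350, plus strand), Mvk (chr5:114444019-114444268, plus strand) and Srebf2 (chr15:82147019-82147268, plus strand). Capitals mark CCAAT or its complement ATTGG, the sterol regulatory element core in Hmgcs1, and the shorter form of it in Srebf2.
Hmgcs1: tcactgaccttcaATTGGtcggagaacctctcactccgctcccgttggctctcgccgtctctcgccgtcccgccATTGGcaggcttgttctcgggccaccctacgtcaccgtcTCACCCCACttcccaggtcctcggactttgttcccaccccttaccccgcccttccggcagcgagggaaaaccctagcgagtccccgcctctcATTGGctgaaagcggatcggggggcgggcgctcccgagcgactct
Mvk: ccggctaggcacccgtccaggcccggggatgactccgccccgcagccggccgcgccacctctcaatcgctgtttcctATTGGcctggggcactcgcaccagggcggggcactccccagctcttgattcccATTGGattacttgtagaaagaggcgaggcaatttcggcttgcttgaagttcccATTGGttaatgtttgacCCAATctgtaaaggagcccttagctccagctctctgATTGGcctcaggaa
Srebf2: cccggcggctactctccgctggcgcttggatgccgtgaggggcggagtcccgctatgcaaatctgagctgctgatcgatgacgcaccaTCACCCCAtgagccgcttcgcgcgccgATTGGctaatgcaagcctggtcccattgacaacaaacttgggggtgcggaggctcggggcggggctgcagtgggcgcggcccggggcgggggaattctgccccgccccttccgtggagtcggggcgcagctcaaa

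The core TCACNCCAC was searched on both strands and was found in 1 of the 24 genes, Hmgcs1, starting 137 bases before its start. It occurred in 1.44% of the 27025 genes in the table. The shorter form TCACCCCA, which overlaps the core and was searched after the data were seen, was in Hmgcs1 and Srebf2, 2 of 24 genes, against 1.77% of all genes. CCAAT on either strand was in 21 of the 24 genes (87.5%), against 41.1% of all genes and 43.3% of the 10476 expressed protein-coding genes in the table. The genes without it were Acat2, Scap and Abca1. Counted by window, 22 of 32 sterol windows held it (68.8%), against 37.4% of 32851 windows. In 11 of 24 genes (45.8%) a single window held 2 or more, against 13.3% of all genes and 16.6% of the expressed protein-coding genes. The Mvk window held 5, of which 4 read ATTGG on the gene's strand and started 173, 120, 67 and 14 bases before the start, each 53 bases from the next. The GC box GGGCGG was in 23 of 24 genes (95.8%), against 38.2% of all genes and 69.8% of the expressed protein-coding genes. These are letter matches and no binding was measured. The windows were not matched to the start sites used in these libraries. All CCAAT matches of Insig2 lie in the window of the transcript Insig2-202, which had 0 counts in both libraries. The Pmvk window begins at 89454291, while Pmvk-201, with 95.7% of the gene's TPM on average, begins at 89459118. All CCAAT matches of Dhcr7 lie in a window that begins at 143829964. Dhcr7-202, with 73.25% of that gene's TPM on average, begins before it, at 143829626. The genes not matched were Fdps, Fdft1, Sqle, Stard4, Npc1 and Abcg1.

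**Figure D1:**
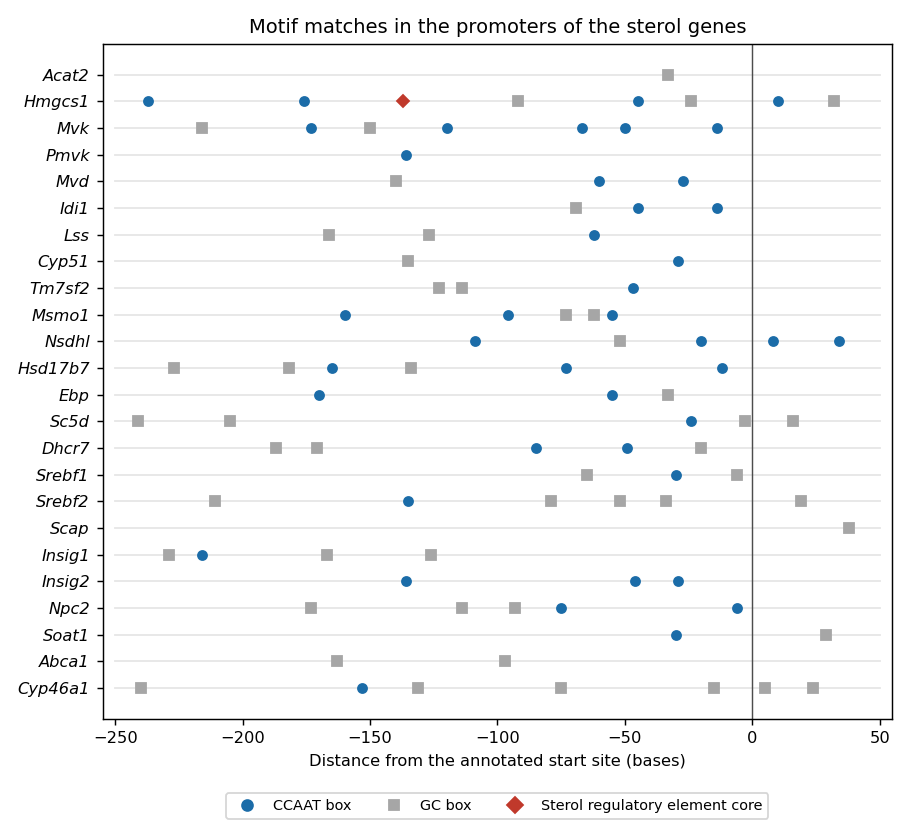
Position of motif matches (x axis, bases from the annotated start site) in 1 promoter window for each of 24 sterol genes (rows). Where a gene had several windows the one with the most CCAAT matches is drawn. Blue circles are CCAAT boxes, grey squares GC boxes and the red diamond the sterol regulatory element core of Hmgcs1; 21 genes have a CCAAT box and Mvk has 5.

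The libraries held 38966386 expected counts in replicate 1 and 40419493 in replicate 2, where an expected count is an estimated number of reads of a gene. Counts on single sterol genes lay between 596 (Ebp, replicate 2) and 31858 (Hmgcs1, replicate 2). Levels are given in TPM, a length-corrected share of all transcripts, which lets genes be compared with each other. Neuronal markers summed to 3452 TPM in replicate 1 and 3493 in replicate 2, led by the neuronal tubulin Tubb3, and radial glia and astrocyte markers to 1446 and 1332, led by Fabp7. Of 7 genes known from midbrain, 6 were expressed in both pools, including Gata3 (81.4 and 94.5 TPM), Th (28.2 and 28.9 TPM) and En1 (10.3 and 7.60 TPM). The exception was En2, at 1.21 TPM in replicate 1 and 0.760 TPM in replicate 2.

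All 30 sterol genes were expressed, taken as 1 TPM or more in both libraries. The same held for 35.4% of all Ensembl genes and 62.4% of 21474 protein-coding genes. Together they took 0.264% of all TPM in replicate 1 and 0.260% in replicate 2. Their median level was 52.2 ± 1.66 TPM (SD, n = 2), against 20.3 ± 0.0141 TPM for the 13401 expressed protein-coding genes. Of the 30, 25 lay above that median, 27 were above 10 TPM in both libraries and 9 above 100 TPM in both. From protein-coding transcripts only, the median of the expressed protein-coding genes was 16.6 ± 0.0778 TPM (SD, n = 2), and by mean again 25 sterol genes lay above it. Some were close to it: Lss (16.59 TPM) and Npc1 (16.34 TPM) were below the replicate 1 median of 16.63 TPM. Srebf1 (16.46 TPM) and Ebp (15.84 TPM) were below the replicate 2 median of 16.52 TPM. By these transcripts 26 genes were above 10 TPM and 8 above 100 TPM in both libraries. In bulk RNA, fewer cells of a type and less RNA per cell cannot be told apart, so these levels are averages over the tissue.

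**Figure D2:**
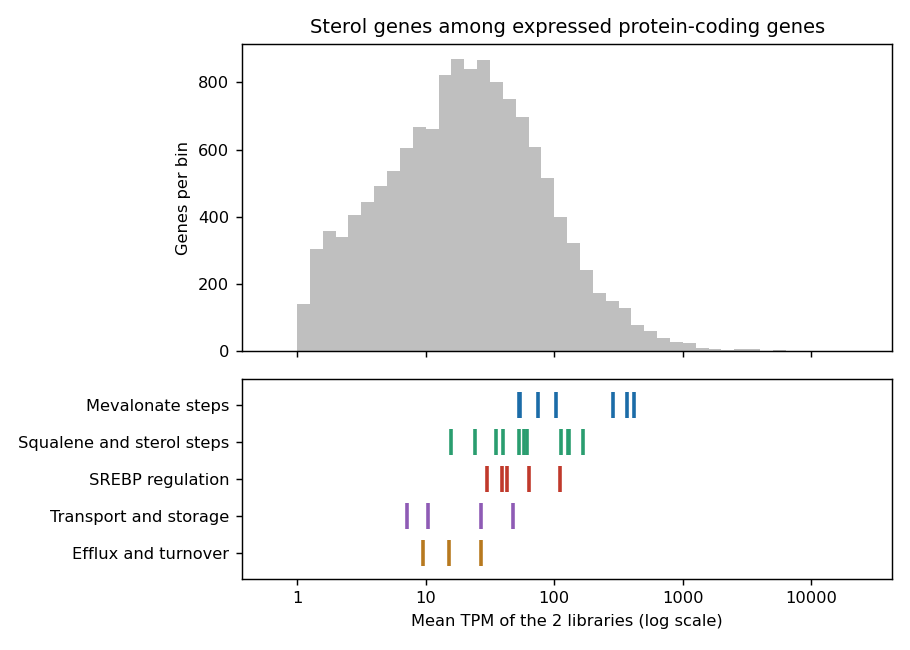
Upper panel: number of expressed protein-coding genes (y axis) by mean TPM of the 2 libraries (x axis, log scale). Lower panel: each vertical mark is 1 sterol gene, by role; 25 of the 30 lie above the 20.3 TPM median of the expressed protein-coding genes.

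The mevalonate steps held the highest levels. Hmgcs1, the cytosolic synthase that joins acetyl-CoA to acetoacetyl-CoA (chromosome 13, 119690379 to 119708260, plus strand), had 413 TPM in replicate 1 and 422 TPM in replicate 2. Its mean of 417 ± 5.82 TPM (SD, n = 2) ranked 251 among the 13401 expressed protein-coding genes, with 98.1% of them below it. Fdps, which makes farnesyl diphosphate (chromosome 3, 89093588 to 89101959, minus strand), had 382 and 355 TPM, and Acat2, the thiolase that makes acetoacetyl-CoA (chromosome 17, 12942890 to 12960747, minus strand), had 289.7 and 281 TPM. These 3 genes stood above every other sterol gene in both libraries, with ranges that did not overlap.

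The kinases and the isomerase of the branch were lower. Pmvk, phosphomevalonate kinase, had 107 TPM in replicate 1 and 100.3 TPM in replicate 2. Idi1, which converts isopentenyl diphosphate to its isomer, had 73.5 and 76.6 TPM. Mvk, mevalonate kinase (chromosome 5, 114444269 to 114460591, plus strand), had 57.0 and 51.4 TPM, and Mvd, the decarboxylase after the kinases, had 55.9 and 50.6 TPM. Hmgcs1 and Mvd, at the ends of the range, had means of 417 and 53.2 TPM. Levels within this linear route thus spanned the widest range of any role group, taken as a difference in TPM. As a ratio of highest to lowest, the squalene and sterol steps spanned more, from 168.8 to 15.7 TPM on average.

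Among the squalene and sterol steps, Sqle and Fdft1, which act first, had the highest levels. Sqle, squalene epoxidase (chromosome 15, 59315077 to 59331192, plus strand), had 164 TPM in replicate 1 and 173 TPM in replicate 2. Fdft1, squalene synthase, had 128 and 131 TPM. Msmo1, the methylsterol monooxygenase, had 126 and 128 TPM, and Cyp51, the lanosterol demethylase, had 112 and 113 TPM. Order among these genes was the same in both pools. From protein-coding transcripts only, Msmo1 had 73.5 and 79.6 TPM, below Cyp51 at 111 and 112 TPM.

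The remaining sterol enzymes lay between 15.7 TPM on average for Hsd17b7 and 61.4 TPM for Sc5d. Sc5d, a sterol desaturase, had 60.3 TPM in replicate 1 and 62.5 TPM in replicate 2, and Dhcr7, the reductase deficient in human Smith-Lemli-Opitz syndrome, had 59.7 and 57.3 TPM. Tm7sf2, a sterol reductase, had 50.8 and 55.7 TPM, and Nsdhl, a dehydrogenase of sterol demethylation, had 38.5 and 40.9 TPM. Lss, lanosterol synthase, which closes the rings, had 35.2 and 35.3 TPM. Lss acts between Sqle and Cyp51 in the pathway, and its level was below both in each library. Ebp, a sterol isomerase, had 26.2 and 22.1 TPM, and Hsd17b7, a keto-sterol reductase, had 16.0 and 15.4 TPM.

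In the SREBP system, Srebf2, the gene of SREBP-2 and the isoform best known for driving cholesterol synthesis (chromosome 15, 82147181 to 82205379, plus strand), had 114 TPM in replicate 1 and 109 TPM in replicate 2. Srebf1, the gene of SREBP-1, better known for fatty acid synthesis (chromosome 11, 60199089 to 60222581, minus strand), had 29.5 and 30.4 TPM. Srebf2 was therefore 3.87-fold above Srebf1 in replicate 1 and 3.58-fold in replicate 2, a log2 ratio of 1.89 ± 0.08 (SD, n = 2). Insig1, which is itself an SREBP target, had 66.1 and 62.0 TPM and its paralog Insig2 had 39.1 and 40.02 TPM, a ratio of 1.69 and 1.55. Scap, the escort protein, had 43.5 and 42.8 TPM. Mir33, a microRNA gene inside an intron of Srebf2, was listed at 0 TPM in both libraries. The RNA used was longer than 200 nt.

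By group median, transport and storage genes and efflux genes were the lowest, though Npc2 stood above several synthesis and regulatory genes. Npc2, a soluble lysosomal sterol-binding protein, had 49.0 TPM in replicate 1 and 46.6 TPM in replicate 2, and its membrane partner Npc1 (chromosome 18, 12189692 to 12236400, minus strand) had 28.6 and 25.0 TPM. Both are genes of human Niemann-Pick type C disease. Npc2 was 1.71-fold and 1.87-fold above Npc1. Stard4, a cytosolic sterol carrier, had 10.8 and 9.95 TPM, and Soat1, which makes cholesteryl esters for storage, had 7.21 and 7.11 TPM, the lowest of the 30 in each library.

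Abcg1 and Abca1 export cholesterol to lipoprotein particles. Abcg1 had 26.8 TPM in replicate 1 and 27.5 TPM in replicate 2, and Abca1 had 9.85 and 9.20 TPM, so Abca1 stood at 0.367 and 0.335 of Abcg1. Cyp46a1, the neuronal hydroxylase that makes a form of cholesterol able to leave the brain, had 14.5 and 15.7 TPM. Abca1 and Cyp46a1 lay below the 20.3 TPM median of expressed protein-coding genes, as did Stard4, Soat1 and Hsd17b7.

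**Figure D3:**
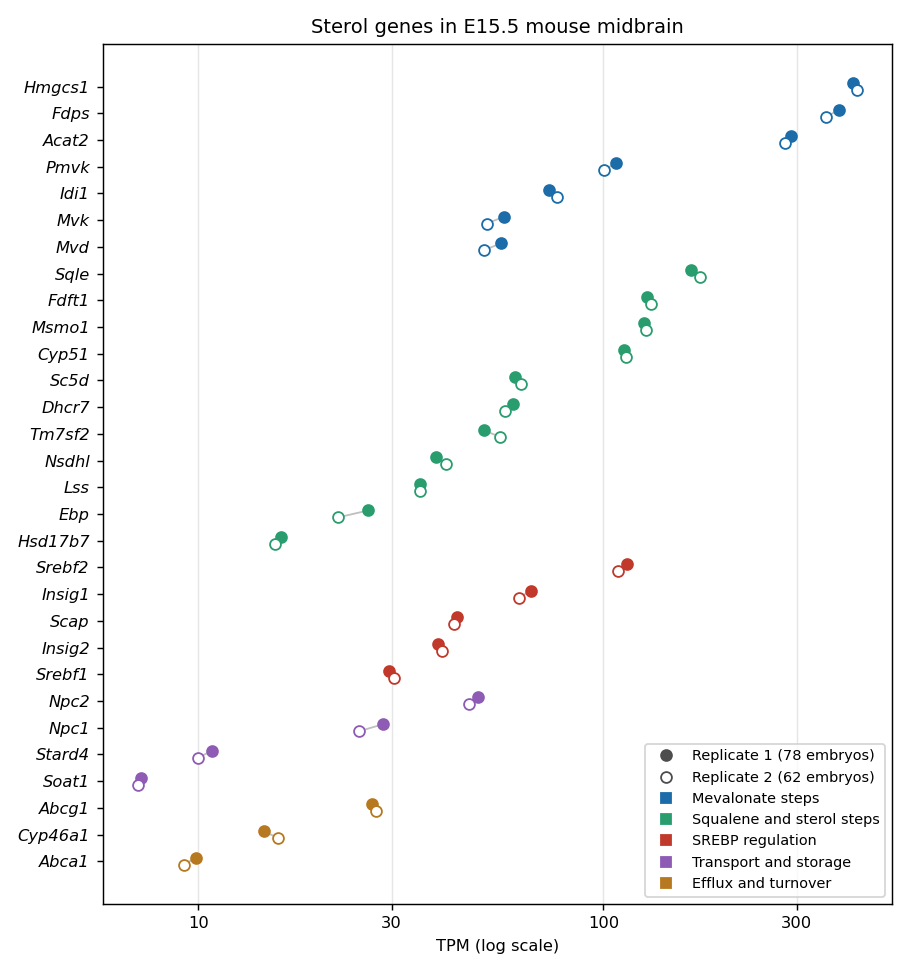
TPM (x axis, log scale) of the 30 sterol genes, grouped by role and ordered by mean within each role. Filled circles are replicate 1 and open circles replicate 2; the 3 highest genes, Hmgcs1, Fdps and Acat2, all belong to the mevalonate steps and Soat1 is the lowest at 7.16 ± 0.0707 TPM (SD, n = 2).

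By role, the median level was 104 ± 4.80 TPM for the mevalonate steps, 58.5 ± 1.75 for the squalene and sterol steps, 43.2 ± 0.495 for SREBP regulation, 18.6 ± 1.59 for transport and storage and 15.1 ± 0.820 for efflux and turnover (SD, n = 2). From protein-coding transcripts only, the order of the last pair turned, with 13.6 ± 0.0672 TPM for transport and storage and 15.1 ± 0.820 TPM for efflux and turnover. Taken within each library on the log2(TPM + 1) scale, the mevalonate median was above the other medians by 0.82 ± 0.02, 1.24 ± 0.05, 2.56 ± 0.04 and 2.70 ± 0.14, in that order of groups. These SDs describe the difference between pools, not the spread among a group's genes. With 2 libraries an exact two-sided sign-flip test can give no p below 0.5. Ranked by mean, the 30 genes form 29 neighbouring pairs, of which 22 kept their order in both libraries and 8 had ranges that overlapped, among them Cyp51 and Srebf2, and Insig1 and Sc5d.

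Between the pools the sterol genes differed little. Replicate 1 over replicate 2 was taken from counts scaled by TMM library sizes, with an exact Clopper-Pearson 95% interval that covers counting error only. None of the 30 was past 1.5-fold in either direction, a size that 8.1% of the 18248 genes averaging at least 10 counts passed. None was past 1.2-fold, which 22.9% of these genes passed. The sterol genes are well counted, and among the 10014 genes averaging at least 500 counts the share past 1.2-fold was 3.76%, so a count of 0 in 30 is close to that background. The log2 ratios ran from -0.12 (Npc1) to 0.23 (Srebf1) with a median of 0.02. Their median absolute value was 0.074, against 0.066 for the well-counted genes.

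For 14 of the 30 the counting interval left out a ratio of 1, with 10 higher in replicate 1 and 4 higher in replicate 2. Among genes averaging at least 500 counts the share was 38.8%, and among those averaging at least 10 counts 30.1%, so 14 of 30 is near what well-counted genes showed. These shares take both directions together, so the split of 10 and 4 has no background beside it. The mevalonate genes Mvk (1.11, interval 1.04 to 1.18), Mvd (1.104, 1.04 to 1.17) and Fdps (1.08, 1.05 to 1.11) were among those higher in replicate 1. Sqle (0.944, 0.919 to 0.970) and Hmgcs1 (0.980, 0.965 to 0.996) were among those higher in replicate 2. There is no second library of either pool, so such small ratios describe these libraries. Scaled by the spike-in RNA, all log2 ratios, those of other genes included, shift up by 0.09. This puts 27 of the 30 genes above 1 in place of 16 and places 1 gene, Srebf1, past 1.2-fold. With that scaling the median log2 ratio was 0.087 over all genes averaging at least 10 counts and 0.108 over the sterol genes.

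**Figure D4:**
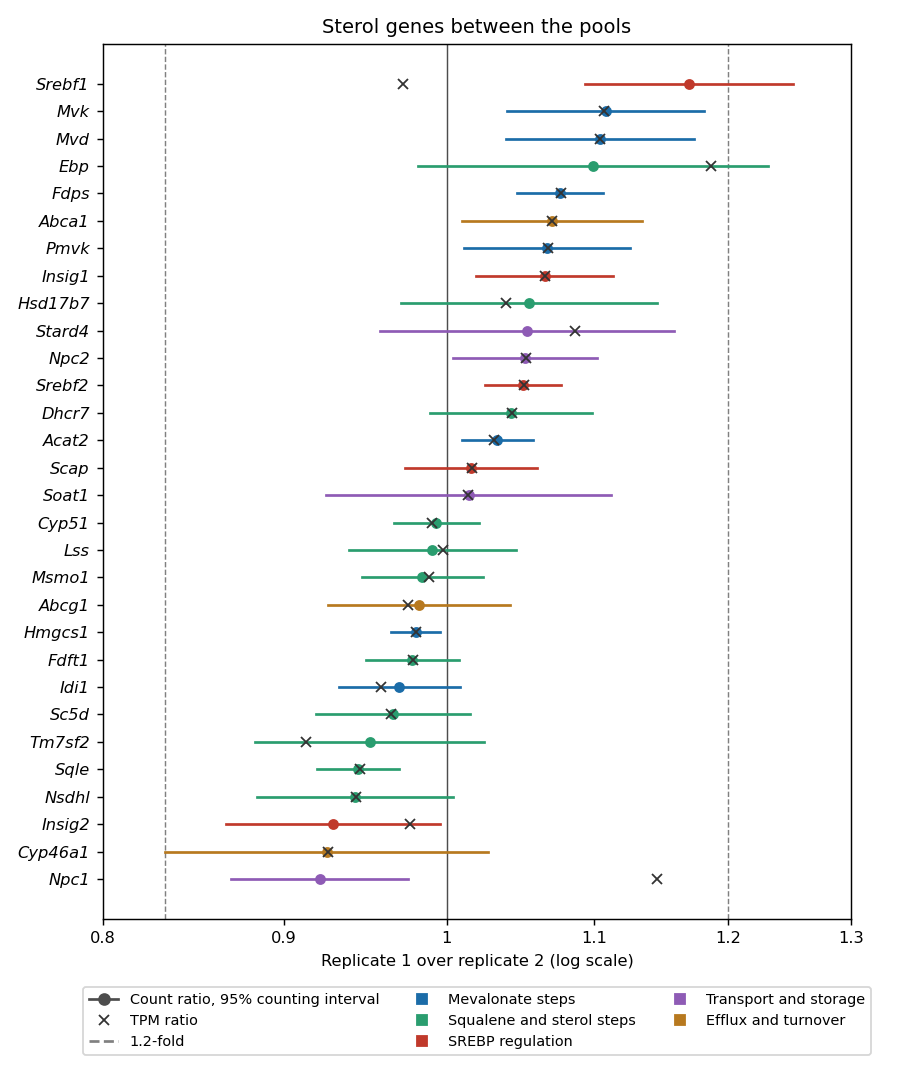
Ratio of replicate 1 over replicate 2 (x axis, log scale) for the 30 sterol genes. Circles are count ratios with their exact 95% counting intervals, crosses are TPM ratios and dashed lines mark 1.2-fold; no circle passes the lines, and the crosses of Srebf1 and Npc1 lie on the other side of 1 from their circles.

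Srebf1 and Npc1 were the 2 genes whose count and TPM ratios pointed in opposite directions. Srebf1 had 1835 counts in replicate 1 and 1618 in replicate 2, a count ratio of 1.17 (1.09 to 1.252), while its TPM ratio was 0.972. Npc1 had 2244 and 2514 counts, a count ratio of 0.921 (0.870 to 0.975), while its TPM ratio was 1.15. In each, a very short noncoding transcript took much of the TPM on few reads. Srebf1-204, a processed transcript of 367 nt, took 21.2% of the gene's TPM in replicate 1 and 36.6% in replicate 2 on 2.13% and 4.44% of its counts. Npc1-203, a processed transcript of 352 nt, took 36.0% and 19.3% of TPM on 2.71% and 1.17% of counts.

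Counting only protein-coding transcripts, an addition made after the data were seen, Srebf1 had 19.9 TPM in replicate 1 and 16.5 TPM in replicate 2, and Npc1 had 16.3 and 17.4 TPM. Their pool ratios then pointed the same way as the counts. The log2 ratio of Srebf2 over Srebf1 became 2.62 and that of Npc2 over Npc1 became 1.504, so the size of these paralog ratios, though not their direction, depends on whether noncoding transcripts are counted.

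The 30 genes had 132 transcripts in the transcript tables. For 9 genes a single transcript was listed, among them Hmgcs1, Fdps, Fdft1, Srebf2 and Insig1. Of the 21 others, 20 had the same leading transcript in both libraries. The exception was Srebf1, led by the coding Srebf1-201 with 34.0% of TPM in replicate 1, and by Srebf1-204 in replicate 2, where Srebf1-201 took 29.3%. Sqle-201 (98.05% ± 0.707, SD, n = 2), Cyp51-201 (98.6% ± 0.290) and Idi1-201 (96.8% ± 1.06) took nearly all of their genes' TPM.

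In 22 genes over 90% of TPM fell on protein-coding transcripts, and in 7 it was under 80%. The 22 include the 9 genes with a single listed transcript, which was coding in each, so their share could not vary. These counts have no share over all expressed protein-coding genes beside them. Lss had the lowest coding share, 47.3% ± 0.244, and its coding transcripts held 16.6 TPM in replicate 1 and 16.7 TPM in replicate 2. Retained-intron and processed transcripts took the rest. Msmo1 had 60.3% ± 2.89, with Msmo1-206, a processed transcript of 1329 nt, at 37.3% in replicate 1 and 32.8% in replicate 2. Srebf1 (60.7% ± 9.24) and Npc1 (63.3% ± 8.84) had the widest spread between pools. Hsd17b7 had 63.8% ± 2.37, Tm7sf2 65.9% ± 2.86 and Ebp 73.8% ± 2.97 (SD, n = 2 throughout). TPM is corrected for length, so short noncoding transcripts weigh more in these shares than in counts. By counts the coding Hsd17b7-201 alone held 91.3% of its gene in replicate 1 and 89.7% in replicate 2. The coding Lss-201 held 63.9% and 61.8% of its gene's counts. The coding TPM of Ebp was 19.9 in replicate 1 and 15.8 in replicate 2.

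**Figure D5:**
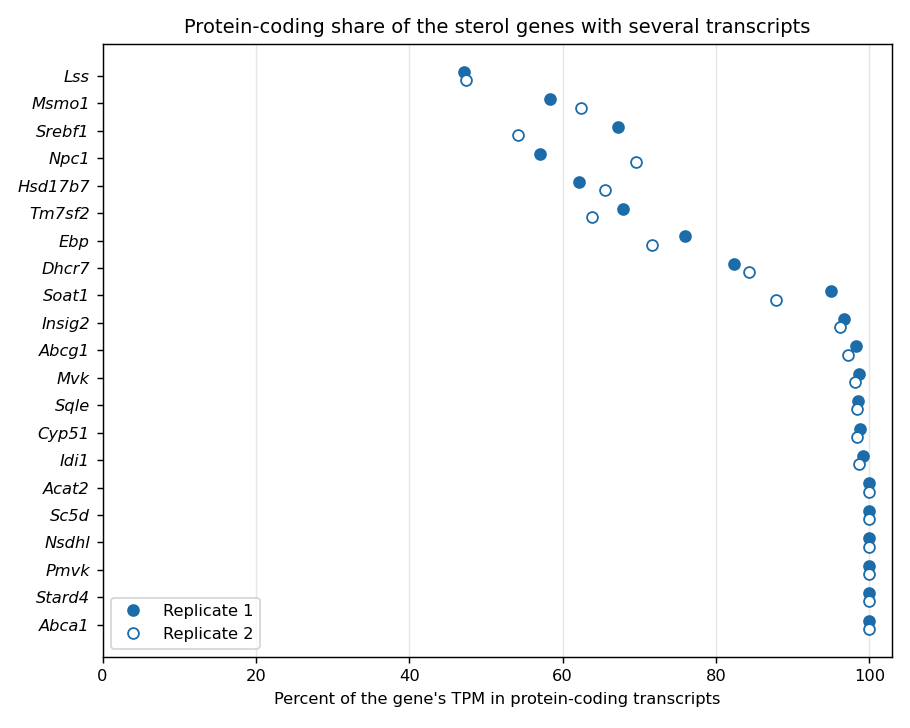
Percent of each gene's TPM that falls on protein-coding transcripts (x axis) for the 21 sterol genes with more than 1 transcript listed. Filled circles are replicate 1 and open circles replicate 2; 7 genes average under 80%, with Lss lowest at 47.3%.

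Part of the counts could belong to neighbours. In GENCODE M21, 10 sterol genes share exon bases with another gene, 8 of them with a gene on the opposite strand. The counts were made with GENCODE M4, and whether strand was used in counting is not given in the sources used here. Fdps has the largest overlap, 1124 exon bases or 26.7% of its M21 exons, with Gm43738 on its own strand. Fdps was counted as a single transcript of 1241 nt. On the opposite strand Scap shares 985 with 5830462I19Rik (0.830 TPM in each library) and Hmgcs1 557 with Gm48342. Gm43738 and Gm48342 were not among the genes counted. Cyp51 shares 166 with Akap9 on the opposite strand (332 TPM in replicate 1 and 349.98 TPM in replicate 2). Fdft1 shares 774 exon bases with Ctsb on the opposite strand (129 TPM in replicate 1 and 117 TPM in replicate 2), Npc1 shares 511 with Rmc1 on the opposite strand and Tm7sf2 shares 532 with Vps51 on its own strand. Values of these genes carry that uncertainty. The deposited posterior SD of a sterol gene's count was at most 0.862% of the count.

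Genes around the pathway were taken from further lists. Of 8 SREBP processing genes all were expressed. None was past 1.5-fold between pools, which 0.13% of genes averaging at least 500 counts passed. Pgrmc1, a heme-binding membrane protein, was highest with 563 TPM in replicate 1 and 555 TPM in replicate 2, above every sterol gene. All 8 SREBP targets of fatty acid synthesis were expressed, with a median of 101 ± 0.315 TPM (SD, n = 2). They were led by the desaturase Scd2 (208 and 205 TPM) and the desaturase Fads2 (196 and 194 TPM), and none was past 1.2-fold, against 3.76% of genes averaging at least 500 counts.

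Of 12 other transport and storage genes 11 were expressed, led by the sterol transporter Gramd1a (172 TPM in replicate 1 and 178 TPM in replicate 2) and the carrier Scp2 (168 and 158 TPM). Soat2, the paralog of Soat1 known from liver and intestine, had 6 counts in replicate 1 and 0 in replicate 2, below the threshold of expression. Of 6 genes of liver X receptors and oxysterols 5 were expressed, led by the receptor Nr1h2 (51.5 and 48.2 TPM) and the ubiquitin ligase Mylip (5.51 and 5.33 TPM).

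Of 10 lipoprotein and uptake genes, 9 were expressed and 3 were past 1.2-fold between the pools. That size was passed by 22.9% of genes averaging at least 10 counts and by 3.76% of those averaging at least 500. The list was led by Apoe, the main apolipoprotein of brain, with 417 TPM in replicate 1 and 310.2 TPM in replicate 2. Apoe had 10171 and 7662 counts, a count ratio of 1.37 (1.33 to 1.41), and is thus among the well-counted genes. The receptor Lrp1 came next (96.4 and 94.2 TPM). Lpl, lipoprotein lipase, had 3.92 and 2.27 TPM, a count ratio of 1.65 (1.34 to 2.04), the only gene of these 5 further lists averaging at least 10 counts that was past 1.5-fold.

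Markers of other cell types were summed in each library. Erythroid markers (6 of 6 expressed, led by Hba-a2) summed to 14771 TPM in replicate 1 and 11524 TPM in replicate 2, microglial markers (6 of 6, led by C1qb) to 127 and 101 TPM, and endothelial markers (6 of 6, led by Cldn5) to 168 and 142 TPM. Oligodendrocyte lineage markers (7 of 7, led by Olig1) summed to 144 and 140 TPM. Of 6 liver markers 2 were expressed, with a sum of 259 and 273 TPM that was mostly Ttr (237 and 269 TPM). Ttr was higher in replicate 2 (count ratio 0.881, interval 0.851 to 0.911), so this sum does not follow the rest of the list. The other 5 were each higher in replicate 1 and summed to 22.1 TPM there, against 3.83 TPM in replicate 2, with Alb, a defining marker, at 4.60 and 0.0900 TPM. Of 5 skin markers 1 was expressed, Krt10 (6.61 and 7.25 TPM), and the sum was 7.48 and 20.6 TPM. Krt5 (0.0800 and 4.72 TPM), Krt14 (0.210 and 5.02 TPM) and Krt15 (0.350 and 3.42 TPM) were higher in replicate 2. The part of these cells in the sterol gene values was not tested.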

How the data were processed

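For each library there was 1 table of genes and 1 of transcripts. Per the file headers, the authors gave expected counts, TPM and FPKM, along with posterior means and SDs. Each transcript also carries, per the file headers, its percent of the gene's abundance. The build was mm10 and the annotation GENCODE M4, per the authors' deposited notes. The aligner, the counter and any use of strand were not given in the sources used here. Replicate numbers come from the labels.

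Symbols were matched by Ensembl ID, with coordinates and biotypes from GENCODE M21 on mm10; 130 of 130 listed symbols matched. Rows named only by a number (26248 rows, 5.5e-05% and 3.0e-05% of counts) and spike-ins (2.30% and 2.42%) entered no comparison, though the deposited TPM includes them in its scale. Expected counts were rounded to whole numbers. Library sizes were TMM over genes averaging at least 10 counts (edgeR 4.0.16, R 4.3.3), with DESeq2 1.42.0 size factors, total counts and spike-ins as alternatives, and 0.5 was added to counts for log2 ratios. Python 3.11.15, pandas 2.3.3 and scipy 1.17.1 were used. The ratio and interval were tested on counts simulated with counting error only, so that test cannot show how they behave under variation between pools. PCR copies could not be told apart, so intervals cover counting error only.

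All 30 members are named. From the further lists the 2 highest genes and any past 1.5-fold are named, except 1 that is not reported here, and from cell type lists the highest; genes named beyond that (En1, En2, Th, Gata3, Alb, Krt5, Krt14, Krt15, Soat2) were chosen after their values were seen. Members and lists were chosen with earlier results of these data known.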

Additional observations from a re-analysis of the deposited data

How the results depend on the processing

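All 30 sterol genes were expressed at thresholds of 0.5, 2 and 5 TPM as at 1 TPM, and in either library alone. With 2 libraries, leaving 1 out always moves a mean by less than their SD. That check therefore cannot show whether a median, difference or paralog ratio is stable. No alternative that was run turned the difference between the mevalonate steps and another role group, or a paralog ratio. As the mean of log2(TPM + 1), the mevalonate level was 139 TPM and that of SREBP regulation 51.7 TPM, and the mevalonate level was above those of the other 4 groups, in the order given before, by 1.21, 1.41, 2.89 and 3.06 on the log2 scale; with a pseudocount of 0.1 the difference to transport and storage was 2.63. From protein-coding transcripts only, chosen after seeing the data, the median of the squalene and sterol steps was 48.7 TPM and that of transport and storage 13.6 TPM, which put it below the 15.1 TPM of efflux and turnover, and the log2 ratios of Srebf2 over Srebf1 and Npc2 over Npc1 were 2.62 and 1.504. From posterior mean TPM the log2 ratios of Srebf2 over Srebf1 and Insig1 over Insig2 were 1.79 and 0.57. The count past 1.2-fold between pools was 1 with spike-in scaling and 2 (Srebf1 and Ebp) with the TPM of protein-coding transcripts. With spike-in scaling the median log2 ratio was 0.11, against 0.087 over all genes averaging at least 10 counts. The causes of these shifts were not tested. No paired analysis was possible because the series has a single group. Depth limits Soat2 and the short noncoding transcripts, which rest on few counts. Lpl rests on more, 237 counts in replicate 1 and 148 in replicate 2.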
